A study of Homo sapiens with 3 samples.

Results

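The EGF receptor ligands measured here were EREG (epiregulin), AREG (amphiregulin), HBEGF (heparin-binding EGF-like growth factor), BTC (betacellulin), TGFA (transforming growth factor alpha), EGF (epidermal growth factor), and NRG1 (neuregulin 1). They were chosen by name, and every probe that the array design assigns to 1 of these 7 genes was read, which gave 10 of the 58201 transcript probes. The cells were THP-1, a human monocytic leukemia line that PMA turns into macrophage-like cells. All cultures received PMA at 100 ng/mL for 24 to 36 h and then fresh medium overnight. The groups were untreated macrophages (Ctrl), macrophages given imiquimod (IMQ), and macrophages given IMQ and DMD (IMQ+DMD), with 4 h in the labels of each group and 1 one-color array per group on a single slide. IMQ is a small-molecule ligand of toll-like receptor 7, and DMD is a benzenoid from the fungus Antrodia cinnamomea. The labels call the third treatment IMQ plus X, and X was read as DMD because DMD is the sole compound beside IMQ in the title and the treatment protocol. The methods of the study give a longer incubation with IMQ for THP-1 cells in general, and no dose is in the labels.

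EGF family ligands are made as membrane-anchored precursors, and proteases such as ADAM17 cut the soluble growth factor from the cell surface. EGF, TGFA, and AREG bind the EGF receptor (EGFR), HBEGF, BTC, and EREG bind EGFR and ERBB4, and NRG1 binds ERBB3 and ERBB4. Ligand binding pairs the receptors and starts the RAS to ERK and the PI3K to AKT cascades. AREG, EREG, HBEGF, and TGFA are known as growth factors for keratinocytes, and macrophages are a known source of HBEGF, EREG, and AREG.

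Each level rests on a 60-base probe printed once per array, so the probe sequence defines what was measured. The probes of EREG, AREG, and HBEGF, whose signals were past 2-fold higher in IMQ than in Ctrl, are shown 5′ to 3′ as given in the scanner output, together with a probe for TGFA, whose signal differed little. The EREG, AREG probe 1, and HBEGF sequences are the opening 30 bases, AREG probe 2 and TGFA probe 1 are whole, and the hg19 positions are those of the whole probes.
EREG, chr4:75254009-75254068, plus strand: tgttcatatgggagaagggggagtaatgac
AREG probe 1, chr4:75320518-75320577, plus strand: tgagtcggtcctctttccagtggatcataa
AREG probe 2, chr4:75318293-75318352, plus strand: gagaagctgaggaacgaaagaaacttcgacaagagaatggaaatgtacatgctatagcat
HBEGF, chr5:139713052-139713111, minus strand: cccatctgtagtaatttattgtctgtctac
TGFA probe 1, chr2:70683472-70683531, minus strand: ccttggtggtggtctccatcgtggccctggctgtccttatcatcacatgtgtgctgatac
The remaining chromosome 4 probes lay at chr4:75675838-75675897 on the minus strand for BTC and at chr4:110932689-110932748 on the plus strand for EGF. TGFA probe 2 lay at chr2:70675319-70675378. Exon and UTR annotation of hg19 was not used here. RefSeq now lists AREGB, which was once annotated as a separate copy of AREG, as a synonym of AREG. Whether these probes could tell the copies apart was not tested.

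A probe counted as measured on an array where the deposited call gave it as detected, which is termed well above background here. This held for 72.0% of the transcript probes in Ctrl, 66.6% in IMQ, and 71.9% in IMQ+DMD. Before normalization the IMQ array was the dimmest, with a median intensity of 61.8 against 94.5 for Ctrl and 76.4 for IMQ+DMD. No probe of the ligands was saturated or marked as an outlier. Of the 10 markers of monocytes and macrophages, 8 were analysed and all 8 were well above background on each array. CD14 was the one of them past 2-fold in a comparison, with normalized intensities of 21874.8 in Ctrl, 13398.7 in IMQ, and 9435.8 in IMQ+DMD, a log2 difference of -1.21 between IMQ+DMD and Ctrl. Of 7 markers of keratinocytes and epithelium, each read by its brightest probe, EPCAM, CDH1, and TP63 were not well above background on any array, KRT14, KRT1, and KRT10 were on each, and KRT5 was on all but the IMQ array, with 39.9 in Ctrl, 17.7 in IMQ, and 51.4 in IMQ+DMD, a difference past 2-fold between IMQ+DMD and IMQ (at least 1.11 on the log2 scale). A second KRT14 probe was not well above background in IMQ and was at -1.17, past 2-fold, between IMQ+DMD and Ctrl. Of 5 fibroblast markers, COL1A2, COL3A1, and LUM were not well above background on any array and COL1A1 and DCN were on each, while the 5 markers of T cells and the 4 of B cells were measured on each array and 0 of them passed 2-fold in any comparison. The part of these markers in the ligand values was not tested. With 1 array per group no test was possible, and an effect of the treatment cannot be told apart from a difference between single cultures, nor fewer cells of a type from less RNA per cell.

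IMQ-treated macrophages had higher signals for EREG, AREG, HBEGF, and NRG1 than untreated macrophages, whereas the signals for TGFA, BTC, and EGF differed by less than 1.5-fold with the deposited normalization. Of the 9 probes that could be compared, 6 were at least 2-fold higher in IMQ and 0 were at least 2-fold lower. Over all transcript probes compared, 4.31% were at least 2-fold higher and 3.48% at least 2-fold lower. The 6 probes were also past 4-fold, as were 0.89% of all probes. Differences between arrays are log2 differences of the normalized intensity, and beside them stands the SD that repeated spots of like brightness gave for such a difference (spot SD), which covers the noise within an array and not that between cultures.

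EREG, a ligand that activates EGFR and ERBB4, had a normalized intensity of 14.5 in Ctrl, 228.1 in IMQ, and 211.9 in IMQ+DMD. The Ctrl value was not well above background, while both others were. Set against the lowest measurable signal on the Ctrl array, 16.5, EREG was at least 13.8-fold higher in IMQ with the deposited normalization. In IMQ+DMD it was at least 12.9-fold higher than in Ctrl. Both bounds had a spot SD of 0.42 on the log2 scale. With normexp background correction, which adds a constant to each signal, the log2 difference between IMQ and Ctrl was 1.87 in place of 3.79. It was 3.26 without normalization between arrays and 3.09 with spike-in scaling.

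AREG, a ligand of EGFR with a role in tissue repair, was read by 2 probes that gave the arrays the same order. Probe 1 had a normalized intensity of 833.1 in Ctrl, 8400.4 in IMQ, and 7718.4 in IMQ+DMD. Probe 2 had 452.6 in Ctrl, 4640.3 in IMQ, and 3946.4 in IMQ+DMD. Ctrl was thus the low array for both probes, and IMQ the highest. The log2 difference between IMQ and Ctrl was 3.33 for probe 1 and 3.36 for probe 2, with a spot SD of 0.07, which is a 10.1-fold and a 10.3-fold higher signal.

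HBEGF, which binds heparan sulfate and is a mitogen for keratinocytes and smooth muscle cells, had a normalized intensity of 1022.8 in Ctrl, 7232.2 in IMQ, and 5509.9 in IMQ+DMD. It was 7.07-fold higher in IMQ than in Ctrl, or 2.82 on the log2 scale (spot SD 0.07). The IMQ+DMD array lay between both others, nearer to IMQ.

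NRG1, the neuregulin that activates ERBB3 and ERBB4, was read by 2 probes of the same transcript on the plus strand of chromosome 8 in hg19. Probe 1 lay at chr8:32585521-32585580, and the 60 bases of probe 2 were spread over chr8:32474390-32585512, a span of 111123 bases that holds a splice junction. Probe 1 had a normalized intensity of 181.9 in Ctrl, 1152.6 in IMQ, and 1165.3 in IMQ+DMD. Probe 2 had 189.7 in Ctrl, 1006.0 in IMQ, and 971.9 in IMQ+DMD. For both probes Ctrl was low, and IMQ and IMQ+DMD were close together. The log2 difference between IMQ and Ctrl was 2.66 for probe 1 and 2.41 for probe 2, with a spot SD of 0.11, which is 6.34-fold and 5.3-fold higher.

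**Figure D1:**
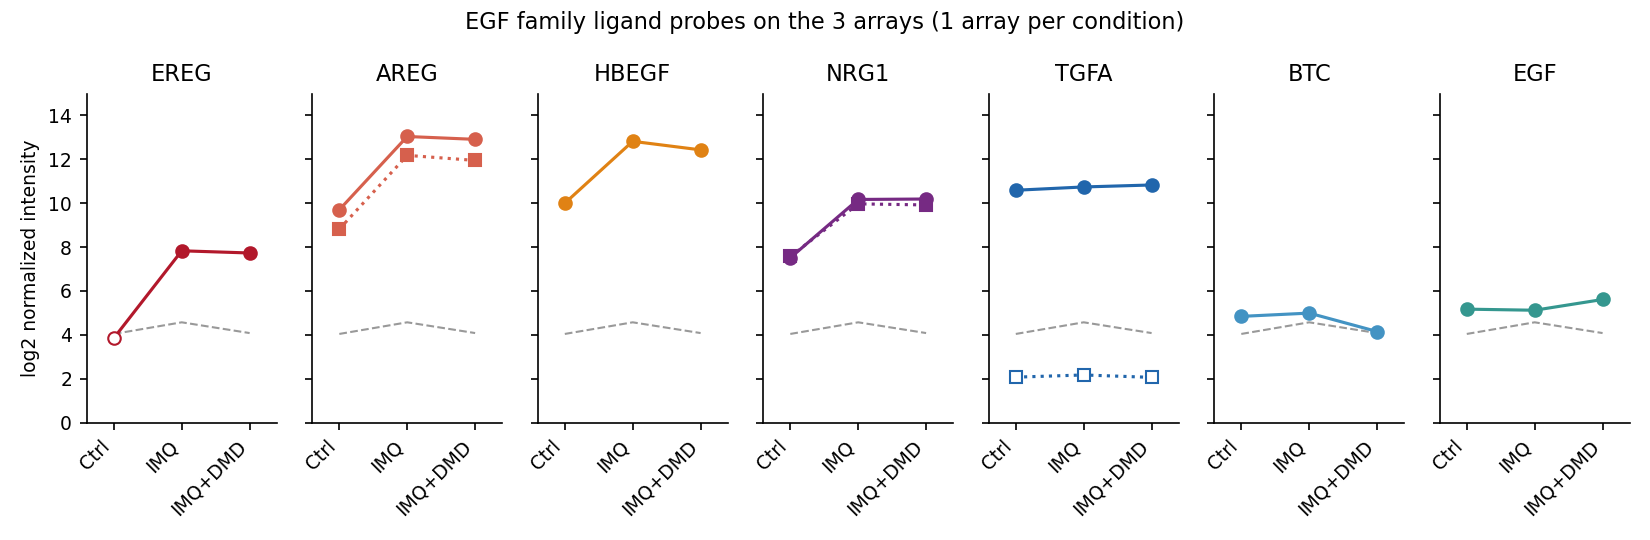
Normalized intensity (log2, vertical axis) of the 10 ligand probes on the Ctrl, IMQ, and IMQ+DMD arrays, with 1 panel per gene. Circles with solid lines are probe 1, squares with dotted lines are probe 2, open symbols are not well above background, and the dashed grey line is the lowest signal well above background on each array. EREG went from 3.85 to 7.83 between Ctrl and IMQ, and TGFA probe 1 from 10.59 to 10.74.

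TGFA, a ligand of EGFR that many epithelial cells make, had a normalized intensity of 1536.1 in Ctrl, 1708.6 in IMQ, and 1814.4 in IMQ+DMD with probe 1. IMQ thus lay 0.15 above Ctrl on the log2 scale (spot SD 0.07). TGFA probe 2 was not well above background on any array and gave no comparison. BTC, a ligand of EGFR and ERBB4 first found in insulinoma cells, had 28.6 in Ctrl, 31.9 in IMQ, and 17.7 in IMQ+DMD, and EGF had 36.0 in Ctrl, 34.7 in IMQ, and 48.7 in IMQ+DMD. Both were measured on each array, though near the lowest measurable signals, which were 16.5, 23.8, and 16.9. Between IMQ and Ctrl, BTC differed by 0.15 and EGF by -0.05 on the log2 scale, with spot SDs of 0.35 and 0.34. The sign of these 3 differences depended on the scaling. Without normalization between arrays, where the median of all probes was -0.51, TGFA was at -0.24, BTC at -0.51, and EGF at -0.71. With scaling to spike-in controls, TGFA was at -0.41, BTC at -0.68, and EGF at -0.88, so that BTC and EGF were past 1.5-fold lower. That scaling used the median over the spike-in probes, of which the dimmest were themselves lower in IMQ, between -1.25 and -0.68. Whether its factor holds for signals as dim as BTC and EGF was not tested. With normexp background correction EGF was at 0.04.

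The 4 ligands that were higher in IMQ kept most of that difference in the cells that also received DMD. None of the 9 probes compared was at least 2-fold higher (0 probes) or at least 2-fold lower (0 probes) in IMQ+DMD than in IMQ, where 1.09% of all transcript probes were at least 2-fold higher and 1.31% at least 2-fold lower. Between IMQ+DMD and Ctrl, 6 of 9 probes were at least 2-fold higher and 0 at least 2-fold lower, against 3.09% and 4.91% of all probes. The IMQ array serves in both comparisons with IMQ, and the Ctrl array in both with Ctrl, so that these counts are not independent of each other.

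Among these 4 ligands, HBEGF had the largest difference between IMQ+DMD and IMQ with the deposited normalization, which was -0.39 on the log2 scale with a spot SD of 0.06, or 1.31-fold lower. It was lower in IMQ+DMD under each way of scaling tried, between -0.58 and -0.26. Of the 40826 probes compared, 35975 had a difference at or above that of HBEGF. The log2 difference from Ctrl that HBEGF kept in IMQ+DMD was 86.1% of that in IMQ.

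AREG differed between IMQ+DMD and IMQ by -0.12 with probe 1 and -0.23 with probe 2 (spot SD 0.06), and its difference from Ctrl in IMQ+DMD was 96.3% and 93.0% of that in IMQ. EREG differed by -0.11 (spot SD 0.13), which became 0.30 with scaling to spike-in controls (HBEGF -0.26 there). NRG1 differed by 0.02 with probe 1 and -0.05 with probe 2 (spot SD 0.07), and the sign of either value changed with the scaling. The NRG1 difference from Ctrl in IMQ+DMD was 101.0% and 97.9% of that in IMQ. Among the ligands that differed little between IMQ and Ctrl, BTC was at -0.85 in IMQ+DMD against IMQ with a spot SD of 0.49, EGF at 0.49 with a spot SD of 0.34, and TGFA at 0.09 with a spot SD of 0.06. Scaling to spike-in controls moved EGF to 1.1, past 2-fold, and the median of all probes to 0.32. In that setting 9.25% of all probes were at least 2-fold higher in IMQ+DMD than in IMQ. The dimmest spike-in probes were themselves higher in IMQ+DMD than in IMQ, by 0.41 to 1.07, and the others lower, between -0.27 and -0.12. Whether the median factor holds for a signal as dim as EGF was not tested.

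**Figure D2:**
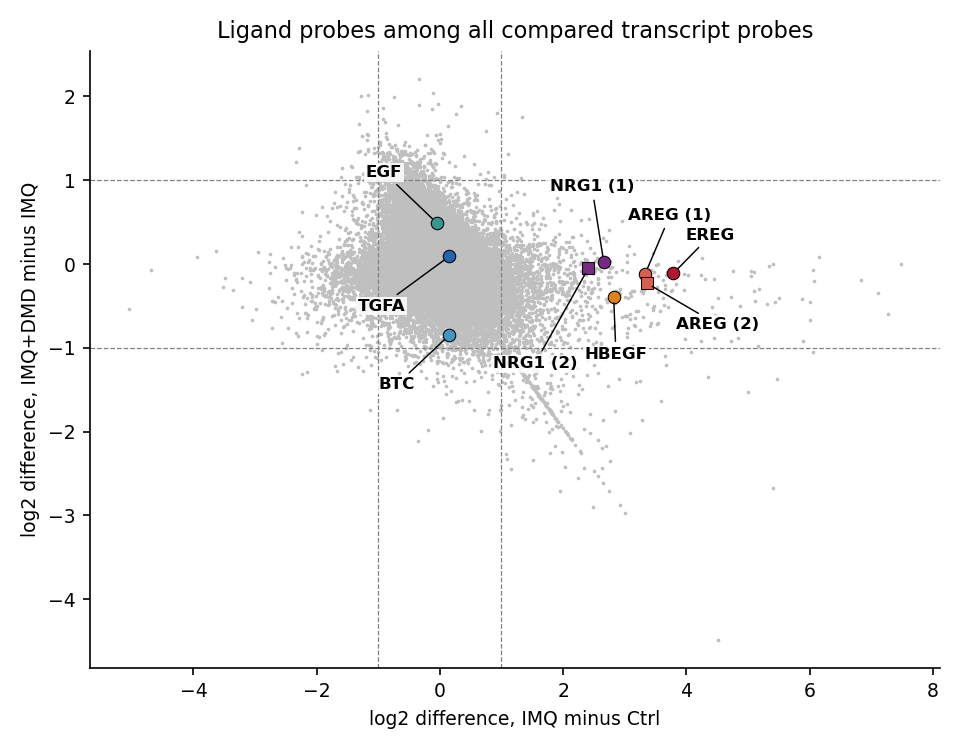
Log2 difference between IMQ and Ctrl (horizontal axis) and between IMQ+DMD and IMQ (vertical axis) for all compared transcript probes (grey) and the ligand probes (colored, named, with the probe number in parentheses). Dashed lines mark 2-fold, the IMQ array enters both axes, and the grey diagonal streak holds probes set to the lowest measurable signal on both other arrays. The probes of EREG, AREG, HBEGF, and NRG1 lie between 2.41 and 3.79 on the horizontal axis and between -0.39 and 0.02 on the vertical axis.

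Of the other 4 ligands of the family, 2 could be compared. EPGN (epigen) and NRG3 were not well above background on any array. NRG2 had a normalized intensity of 86.2 in Ctrl, 100.3 in IMQ, and 82.4 in IMQ+DMD, and NRG4 had 70.1, 79.8, and 114.0. Neither passed 2-fold with the deposited normalization, with log2 differences between IMQ and Ctrl of 0.22 for NRG2 and 0.19 for NRG4. In IMQ+DMD against IMQ, NRG4 was at 0.52 and NRG2 at -0.28. A second NRG2 probe was at 0.83 between IMQ and Ctrl and at -0.90 between IMQ+DMD and IMQ, and NRG4 was at 1.05 in the latter comparison with spike-in scaling.

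All 4 receptors were well above background on each array by their brightest probe. Of these probes, 0 of 4 passed 2-fold in IMQ against Ctrl, with a median log2 difference of -0.06 beside -0.03 over all genes. Of all genes compared, read by 1 probe each, 4.4% were at least 2-fold higher in IMQ and 4.71% at least 2-fold lower, and for IMQ+DMD against IMQ these shares were 0.633% and 0.892%. ERBB3, which signals through its partners because its own kinase is weak, was at -0.38, and ERBB2, the partner without a known ligand, at -0.29. EGFR, the receptor for most of these ligands, had a normalized intensity of 47.4 in Ctrl, 53.0 in IMQ, and 59.8 in IMQ+DMD, and its log2 difference for IMQ minus Ctrl was 0.16 (spot SD 0.32). The other EGFR probes gave -0.14 and -0.84, so that its probes disagreed in sign. The EGFR probe at -0.84 was not well above background in IMQ, so that -0.84 is a bound. That probe was at -1.33, past 2-fold, between IMQ+DMD and Ctrl, which may be a bound as well, and it gave no comparison between IMQ+DMD and IMQ. A second ERBB4 probe gave no comparison. The further ERBB3 probes gave -0.42 and 0.60, and a second ERBB2 probe gave 0.17, so that these probes disagreed in sign as well. The ERBB3 probe at -0.42 was also not well above background in IMQ, which makes that value a bound. Spike-in scaling put the median of all probes at -0.69, with 24.5% of them at least 2-fold lower in IMQ than in Ctrl. In that setting 2 of the 4 receptors were at least 2-fold lower, among them ERBB3 at -1.15. In IMQ+DMD against IMQ, ERBB3 was at 0.95 and ERBB4 at -0.41, and another ERBB3 probe was at -0.22. ERBB3 passed 2-fold in that comparison with scaling to the 75th percentile (1.16), without normalization (1.22), and with spike-in scaling (1.47). Of all probes, 3.08%, 3.96%, and 9.25% were at least 2-fold higher there, in that order.

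Of 15 genes for the release of ligands and their partners at the cell surface, 2 were at least 2-fold higher in IMQ than in Ctrl and 0 at least 2-fold lower, with a median log2 difference of 0.07. The pair was CD44, a hyaluronan receptor that can present HBEGF, at 1.5, and TIMP3, an inhibitor of ADAM17, at 1.17. A further CD44 probe was at -0.11, and TIMP3 fell short of 2-fold without normalization between arrays (0.79) and with spike-in scaling (0.62). Spike-in scaling also put ADAM19, a further sheddase, at -1.02, past 2-fold lower, and the median of the list at -0.41. That scaling put 24.5% of all transcript probes at least 2-fold lower. ADAM17, the main sheddase of AREG, EREG, HBEGF, and TGFA, had a normalized intensity of 3973.1 in Ctrl, 4049.2 in IMQ, and 4344.0 in IMQ+DMD. ADAM10, the sheddase of EGF and BTC, had 2245.1, 2161.3, and 2146.4, and RHBDF2, which carries ADAM17 to the surface, had 17590.0, 30080.4, and 24811.1. These 3 genes were named for their role after their values were seen. In IMQ+DMD against IMQ, 0 of 15 passed 2-fold, and the widest differences were TIMP3 at -0.57 and ADAM15 at -0.46.

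Of 14 feedback genes of the receptors, 1 was at least 2-fold higher and 2 were at least 2-fold lower in IMQ than in Ctrl, with a median of 0.14. SPRY4, a Sprouty inhibitor of the RAS to ERK cascade, was at 1.29, with a second probe at -0.07. SPRED1, an inhibitor of RAS, had a normalized intensity of 227.8 in Ctrl, 88.0 in IMQ, and 57.4 in IMQ+DMD, which is -1.37 on the log2 scale for IMQ against Ctrl. LRIG3, a membrane protein related to the EGFR inhibitor LRIG1, had 105.2, 46.1, and 21.3. Its log2 difference was -1.19 from Ctrl to IMQ (spot SD 0.28) and -1.11 from IMQ to IMQ+DMD (spot SD 0.46). The value in IMQ+DMD was near the lowest measurable signal there, 16.9. LRIG3 was the single gene of the list past 2-fold in IMQ+DMD against IMQ, and it fell short there under the other 4 ways of scaling, between -0.78 and -0.33. Between IMQ and Ctrl, normexp background correction left none of these 3 genes past 2-fold, with 0.98 for SPRY4, -0.98 for SPRED1, and -0.67 for LRIG3, and SPRY4 also fell short without normalization (0.80) and with spike-in scaling (0.63).

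Of 20 genes that carry the receptor signal, 19 could be compared and 0 passed 2-fold in either comparison, with a median of 0.08 between IMQ and Ctrl and of 0.03 between IMQ+DMD and IMQ. The widest differences between IMQ and Ctrl were PIK3CA, a catalytic subunit of PI3K, at 0.64, and PIK3R1, its regulatory subunit, at -0.49. With spike-in scaling PIK3R1 became -1.06, past 2-fold, where 24.5% of all transcript probes were at least 2-fold lower. In IMQ+DMD against IMQ, PIK3CA was at 0.22. GAB1, an adaptor of EGFR, was not well above background on any array.

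**Figure D3:**
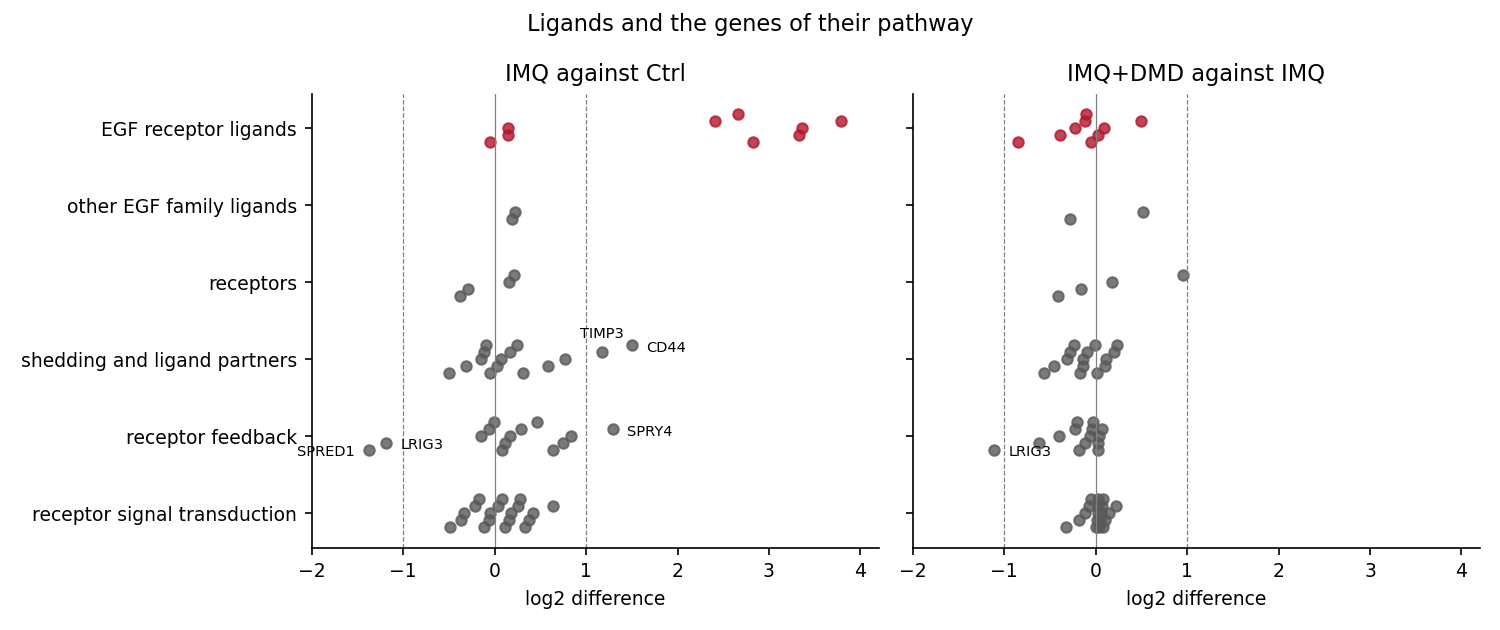
Log2 differences of IMQ from Ctrl (left) and of IMQ+DMD from IMQ (right), with 1 point per probe for the ligands (red) and 1 point per gene for the other lists (grey). Dashed lines mark 2-fold, genes of the other lists past it are named, and vertical offsets within a list only separate points. The ligands held 6 points past 2-fold on the left and 0 on the right.

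EREG, AREG, EPGN, and BTC lie close together on chromosome 4, so the probes within 400 kb on either side of the span from EREG to BTC were read as well, a window chosen after values were seen. AREG probe 2 lay 64.3 kb and AREG probe 1 66.5 kb from the EREG probe, and BTC lay 421.8 kb away. On the side opposite AREG, the neutrophil chemokine CXCL2 was higher in IMQ than in Ctrl by 7.48 on the log2 scale at -291.0 kb, and a second CXCL2 probe by 6.05. CXCL3, its close relative, was higher by 7.11 at -351.3 kb, and CXCL5, a further chemokine of this group, by 0.37. EPGN, between them and EREG at -75.2 kb, was not well above background. MTHFD2L, a mitochondrial folate enzyme that neighbours EPGN, was 0.98 higher in IMQ than in Ctrl and a further 0.69 higher in IMQ+DMD than in IMQ. Between CXCL2 and EREG, MTHFD2L thus fell just short of 2-fold, and EPGN gave no comparison. PPBPP2, between CXCL3 and CXCL2, was at 0.74 and well above background on 1 array. BTC at 0.15 and PARM1 at 0.27, beyond AREG, differed less. Among transcripts without a gene symbol, lnc-MTHFD2L-1 was at 1.24, and lnc-BTC-5 at 1.5 with 1 probe and -0.09 with another.

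**Figure D4:**
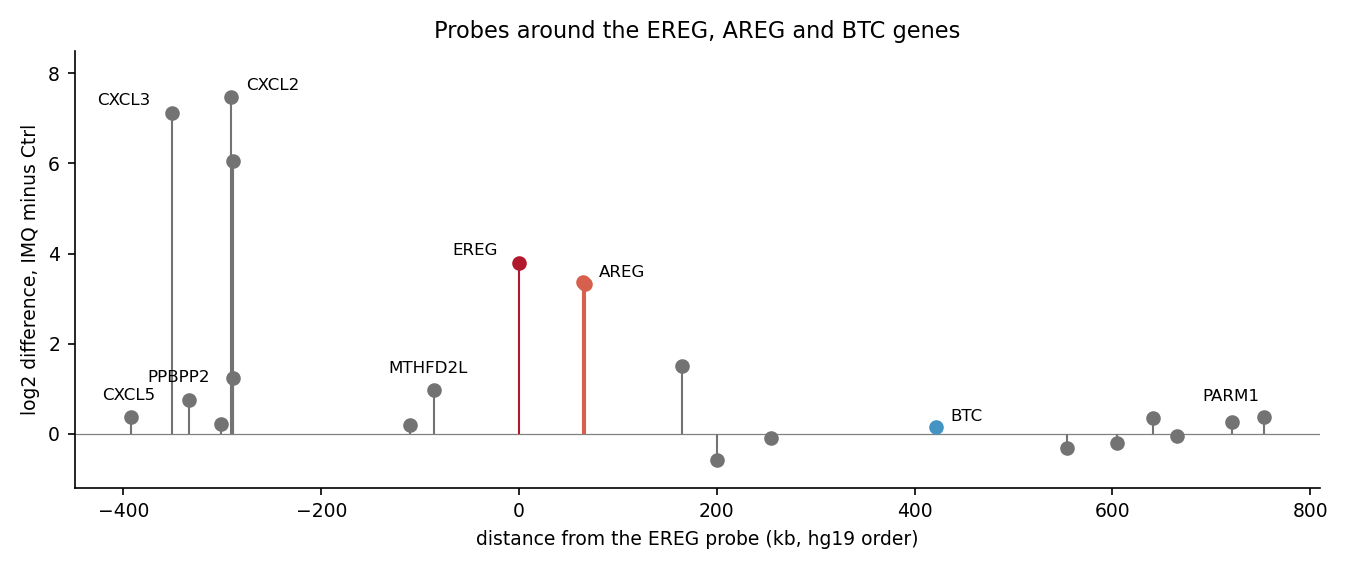
Log2 difference between IMQ and Ctrl (vertical axis) of the compared probes around EREG, AREG, and BTC, by distance from the EREG probe in kb (horizontal axis). Ligands are colored and other probes grey, and unnamed grey points are further probes of named genes or transcripts without a gene symbol. The high points are CXCL3 at 7.11, CXCL2 at 7.48 and 6.05, EREG at 3.79, and AREG at 3.33 and 3.36.

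The promoters of EREG and AREG are shown because these ligands lie close together on chromosome 4 and were both past 2-fold between IMQ and Ctrl. The 250 bases before each start site come from RefSeq on GRCh38.p14, and 6 of the 7 ligands had a promoter there. Capitals mark TATAAA in both and TGACGTCA, the full cAMP response element, in AREG.
EREG, chr4:74364895-74365144, plus strand: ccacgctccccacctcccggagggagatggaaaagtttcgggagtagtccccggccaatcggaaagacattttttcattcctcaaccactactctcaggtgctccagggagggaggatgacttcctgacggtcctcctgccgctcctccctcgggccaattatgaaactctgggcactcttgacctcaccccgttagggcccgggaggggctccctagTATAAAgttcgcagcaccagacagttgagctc
AREG, chr4:74444886-74445135, plus strand: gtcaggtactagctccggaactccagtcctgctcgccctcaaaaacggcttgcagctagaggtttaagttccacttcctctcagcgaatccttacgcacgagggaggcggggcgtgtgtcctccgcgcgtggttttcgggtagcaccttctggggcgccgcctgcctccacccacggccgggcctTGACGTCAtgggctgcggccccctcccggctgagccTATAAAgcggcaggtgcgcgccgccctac
TATAAA began 32 bases before the start of EREG and 29 bases before that of AREG, and was found in none of the other 4 ligand promoters. Both strands were searched from 250 bases before to 50 bases after the start, and 11.5% of the 35116 promoters held TATAAA. TGACGTCA began 65 bases before the start of AREG and is in 1.85% of promoters. Its shorter form TGACG, which is part of TGACGTCA, began 125 bases before the start of EREG, and was also in AREG and TGFA, beside 24.6% of promoters. GGGCGG, the core bound by Sp1, had 5 matches in HBEGF and at least 1 each in TGFA, AREG, and BTC, and is in 45% of promoters. TGANTCA, the AP-1 motif, began 17 bases before the start of EGF alone among the ligands (7.71% of promoters), and the NF-κB consensus was found in TGFA alone (5.91%). These matches describe letters in a window and not bound sites.

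For each ligand past 2-fold, the genes with the closest pair of log2 differences over the 3 arrays were listed. HBEGF lay closest to IL10, an anti-inflammatory cytokine, at a Euclidean distance of 0.027 between the pairs, and IL10 was 2.80 above Ctrl in IMQ and at -0.38 relative to IMQ in IMQ+DMD. The next were CDC42EP2 at 0.072 and MAMLD1 at 0.105. AREG lay closest to the transcription factor BHLHE40 (0.105), the polyamine enzyme SAT1 (0.137), and the water and glycerol channel AQP9 (0.185). The genes closest to NRG1 were C17orf96 (0.096), the TNF receptor adaptor TRAF1 (0.115), and the AP-1 subunit FOSL2 (0.117). These were drawn from 17433 genes measured on all 3 arrays, and with so many genes and 3 arrays such closeness is a description of these arrays. EREG was matched with 128 genes that, like it, were not well above background on Ctrl alone, of which MYH11 (0.666), CLDN5 (0.678), and CXCL6 (0.841) lay closest.

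The ligand differences between IMQ and Ctrl ranged more widely over the ways of scaling than the spot SD. EREG ranged from 1.87 with normexp background correction to 3.98 without a lower limit, AREG probe 1 from 2.80 to 3.42, HBEGF from 2.28 to 2.90, and NRG1 probe 2 from 1.84 to 2.46. The 6 probes past 2-fold stayed past 2-fold under each of the 5 ways of scaling. Scaling to spike-in controls used the median over 10 probes, of which 7 were higher on the IMQ array than on the Ctrl array, by 0.07 to 0.25 on the log2 scale, and the 3 dimmest were lower, between -1.25 and -0.68, so that the probes did not share 1 factor. From IMQ to IMQ+DMD the 3 dimmest were higher, by 0.41 to 1.07, and the others lower, between -0.27 and -0.12.

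**Figure D5:**
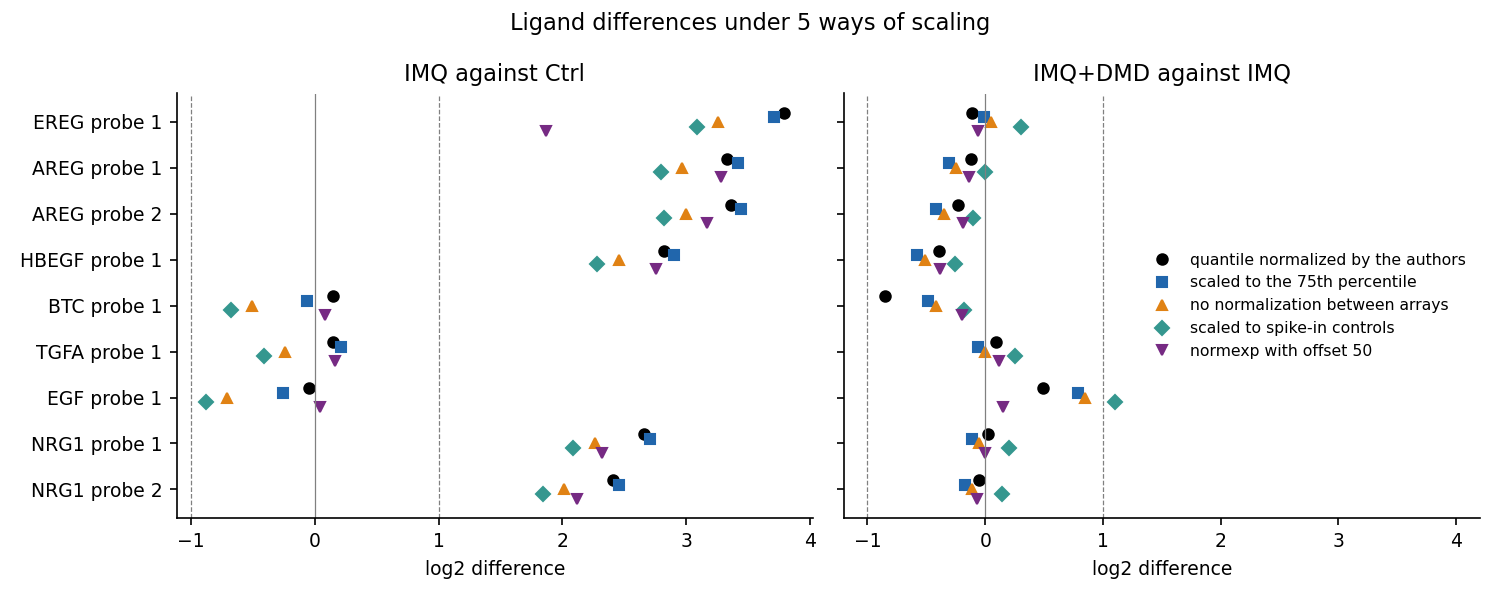
Log2 differences of the 9 compared ligand probes of IMQ from Ctrl (left) and of IMQ+DMD from IMQ (right) under 5 ways of scaling the arrays (symbols). Dashed lines mark 2-fold. On the left the lowest value among the EREG, AREG, HBEGF, and NRG1 probes is 1.84 (NRG1 probe 2, spike-in controls), and on the right EGF passes 2-fold at 1.1 with spike-in controls.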

How the data were processed

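The authors deposited the scanner output of Feature Extraction 10.5.1.1 and a table with the raw intensity, the quantile-normalized intensity, and a detection call of each probe; the tool used for normalization is not given in the sources used here. The deposited raw intensity equalled the processed signal of the scanner within 1.33e-13% for the 57901 probes with 1 spot, and 0 columns of values per sample were left unused. Detection was the deposited call. It differed from the well-above-background mark of the scanner for 1 single-spot probe in Ctrl, 2 in IMQ, and 2 in IMQ+DMD.

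The normalized intensity was converted to log2 and subtracted between arrays (Python 3.11.15, numpy 2.4.6, pandas 2.3.3; matplotlib 3.10.9). A comparison needed a mark well above background on the brighter of both arrays. A dim value on the other array was replaced by the lowest value among that array's marked probes unless it was already higher, which makes the difference a bound. Probes counted at 2-fold or more, no p-value was computed, and precision is limited by the number of arrays. The spot SD came from 300 probes with 10 spots each, as the median SD among those near the same brightness, combined over both arrays. The call past 2-fold was tested on simulated data, in which bright probes were shifted by more than that. The replacement of dim values and the spot SD were not tested there.

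The probe with the highest mean log2 value stood for a gene of the lists, under the symbol of the array design. Named were all ligands and, in each list, the genes past 2-fold or else those with the widest differences, of which 1 is not reported here. For the markers of monocytes and macrophages, CD68 and LYZ were not analysed here. Members, lists, and rules were chosen with earlier results of these data known. The alternatives tried were no normalization, scaling to the 75th percentile, scaling to the median ratio of 10 spike-in probes, normexp with an offset of 50 followed by quantile normalization (limma 3.58.1, R 4.3.3), quantile normalization without outlier spots, other handling of dim probes, other fold thresholds, and the mean over the probes of a gene.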

Additional observations from a re-analysis of the deposited data

How the results depend on the processing

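No paired analysis was possible because each condition has 1 array and shares a single replicate number, and no array could be left out. Of 193 values of single ligand probes under alternatives, 175 kept their sign, 121 moved by less than the spot SD, and 0 of those past 2-fold changed sign. The 6 probes past 2-fold in IMQ against Ctrl became 5 where both arrays had to be well above background, since EREG then had no value. Spike-in scaling gave 1 ligand probe at least 2-fold higher in IMQ+DMD than in IMQ (EGF) in place of 0, beside 9.25% of all probes. With 1.5-fold in place of 2-fold, 1 was lower in IMQ+DMD than in IMQ and 1 lower than in Ctrl (BTC both times, at -0.85 and -0.69), in place of 0. Of all probes, 5.98% and 11.9% were at least 1.5-fold lower in these comparisons. Counts over all probes moved further: 1771 were at least 2-fold higher in IMQ than in Ctrl with the deposited normalization, 575 with spike-in scaling, 728 with normexp, 730 without normalization, and 3751 without a lower limit or filter. Of the calls between IMQ and Ctrl, 55.3% were higher with the deposited normalization, 44.1% with the 75th percentile, 9.87% without normalization, and 5.24% with spike-in scaling, and between IMQ+DMD and IMQ these shares were 45.5%, 82.8%, 87.9%, and 96.9%. The median of all probes between IMQ and Ctrl was -0.01, -0.07, -0.51, and -0.69 in that order. The cause was not tested. Signals near background limit BTC and EGF, and also EREG, whose Ctrl value was not well above background.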
